A study of Mus musculus with 2 samples.

Results

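The genes examined here are 10 members of the bone morphogenetic protein (BMP) pathway and its targets, chosen by name with earlier results of these data known. They are the BMP ligand genes *Bmp2*, *Bmp4* and *Bmp7*, the receptor gene *Bmpr1a*, the signal transducers *Smad1* and *Smad5*, the extracellular modulator *Bmper* and the Id genes *Id1*, *Id2* and *Id3*. Every probe set that the platform annotation assigns to exactly 1 of these symbols was taken, which gave 23 of 34958 single-gene probe sets and 10 of 18194 named genes. The series compared 1 array of wild-type (WT) mouse embryonic stem cells (ESCs), the TT2 line, derived from an F1 embryo of the cross of a C57BL/6 female with a CBA male, with 1 array of G9a-KO ESCs, a TT2-derived line without exons 26 and 27 of G9a, which encode the catalytic core of its SET domain. G9a, encoded by *Ehmt2*, places H3K9me2 on histone H3, and the arrays address which genes differ when it is lost. In the G9a-KO line 1 allele had been mutated earlier and the other was floxed and then deleted by Cre, and what drives Cre is not stated. Each group is a single line on a single array. Both samples carry the same treatment text of 800 nM 4-hydroxytamoxifen for 48 h and a further 48 h without it, and it is not stated separately if the drug was also added to WT cells. The methods of the study instead list the G9a-KO cells as G9a-null ESCs from earlier work. They give 800 nM 4-hydroxytamoxifen for the deletion of *Ring1b* and do not give it for G9a. The labels give 10% serum replacement, 1% fetal calf serum and leukemia inhibitory factor (LIF) for both, whereas in the methods all ESCs grew in serum with LIF, the G9a-KO cells on inactivated embryonic fibroblasts.

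BMP ligands are secreted dimers that bind a complex of type I and type II serine/threonine kinase receptors, and the activated type I receptor phosphorylates SMAD1, SMAD5 and SMAD9, which enter the nucleus with SMAD4. The Id genes are among the best known direct targets of these SMADs. ID proteins have a helix-loop-helix domain without the basic region that contacts DNA, so that they pair with E proteins and other basic helix-loop-helix factors and keep them off DNA. In mouse ESCs, BMP4 together with LIF is known to sustain self-renewal, in part through Id genes, and in the early embryo BMP2 is known as a product of the visceral endoderm.

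Levels below are log2 values after subtraction of the 75th percentile of each array, so that 0 is that percentile and the median of all probe sets lay at -2.24 in WT and -2.13 in G9a-KO. A difference is the log2 level in G9a-KO minus that in WT. Since each group had a single array, there is no replicate check, no p-value was computed, and how far cultures of 1 genotype differ is unknown. As rough scales, the 18 spike-in hybridization controls had differences from -0.16 to 0.21 (SD 0.11), and the robust SD of the differences of all genes was 0.36. *Ehmt2* itself was 2.90-fold lower in G9a-KO by its brighter probe set (level 2.05 in WT, 0.51 in G9a-KO), while a dimmer probe set, near the median on both arrays, differed by 0.20. The sources used here do not place either probe set inside or outside the deleted exons, so they do not check the label.

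By the probe set with the highest mean of each gene, 5 of the 10 members exceeded 1.3-fold with G9a-KO the higher array (*Id1*, *Id2*, *Bmp2*, *Bmpr1a* and *Bmper*), 2 were over 1.3-fold lower (*Id3* and *Smad5*) and 3 were within 1.3-fold (*Bmp4*, *Bmp7* and *Smad1*). Among all 18194 genes, 17.4% were over 1.3-fold higher and 17.2% lower, and centring each array on its median changed the share of higher genes among all calls from 50.4% to 36.9%. At 2-fold, 3 members were higher (*Id2*, *Bmp2* and *Bmper*) and 2 lower (*Id3* and *Smad5*), beside 4.61% and 3.76% of all genes. The median difference of the 10 members was 0.20 and that of all genes 0.036. The members had differences from -2.02 to 3.16. Of their 23 probe sets, 9 were over 1.3-fold higher and 4 lower, beside 17.9% and 15.4% of all single-gene probe sets. By the rule of the study, in which 1 probe set past the fold is enough, 6 members were higher (*Bmp7* in addition) and 2 lower, beside 24.6% and 22% of all genes.

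**Figure D1:**
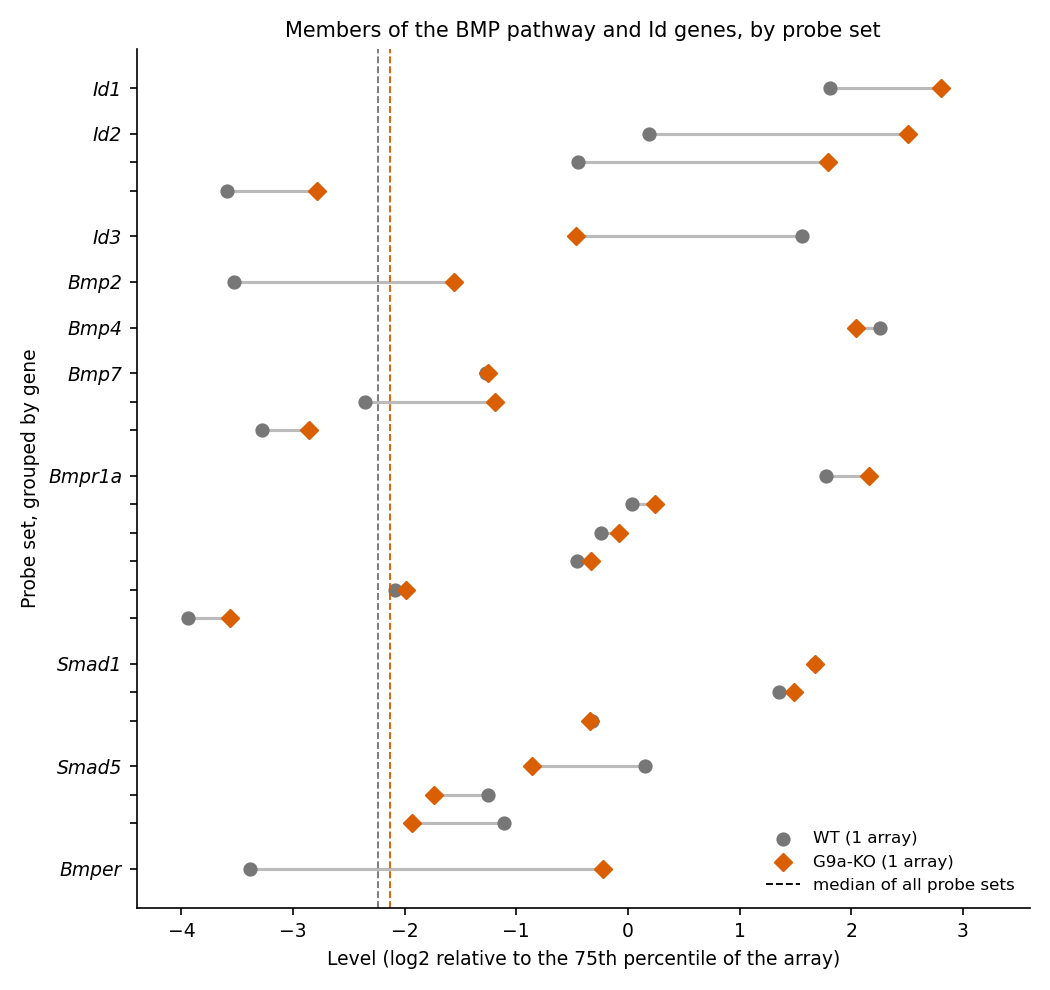
Level of the 23 probe sets of the 10 members (log2 after subtraction of the 75th percentile, horizontal axis) on the WT array (grey circles) and the G9a-KO array (orange diamonds), 1 point per array, with probe sets grouped by gene (vertical axis) and ordered by their mean within a gene. Dashed lines mark the median of all probe sets on each array (-2.24 and -2.13). *Id2* lies to the right in G9a-KO and *Id3* to the left, and *Bmp2* and *Bmper* cross the median.

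The Id genes did not run in parallel. *Id1* and *Id2* were higher and *Id3* was lower in G9a-KO. *Id1*, measured by 1 probe set, had a level of 1.81 in WT and 2.80 in G9a-KO. G9a-KO was the higher array by 0.99 (1.99-fold), just under the 2-fold threshold, which it passed with lowess (1.01). Among the 909 genes of like mean level (1 of 20 bins of equal size), 8.48% of the others differed by at least as much in either direction.

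*Id2*, which restrains E proteins in many lineages, had the largest positive difference of the 3 paralogues. The level of its brightest probe set was 0.19 in WT and 2.51 in G9a-KO. The second probe set stood at -0.45 in WT and 1.79 in G9a-KO. These probe sets put the G9a-KO array 4.98-fold and 4.73-fold higher, differing from each other by less than the SD of the spiked-in controls. The third probe set of *Id2* was dim, under the array median in WT (-3.59) and in G9a-KO (-2.79), and was 1.74-fold higher, a fold that depends on the background. Of all genes, 0.835% had a higher difference than the brightest *Id2* probe set, and 0.771% of the others at its level differed by as much in either direction.

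*Id3* went the other way. Its single probe set had a level of 1.56 in WT and -0.46 in G9a-KO. WT was the higher array by a factor of 4.06 (difference -2.02), and the G9a-KO level was above the median of all probe sets. Of all genes, 0.335% had a lower difference, and 2.42% of the others of like level differed by as much in either direction. The differences of *Id2* and *Id3* were thus 4.34 apart on the log2 scale, a 20.2-fold ratio between their folds, those of *Id1* and *Id3* 3.01 apart (8.08-fold), and that of *Id1* minus that of *Id2* was -1.32 (2.50-fold). Under the scalings between the arrays that were tried, *Id2* was between 2.22 and 2.34. *Id3* was -2.12 with median centring, its lowest value, and -2.04 with quantile normalization. These scalings moved no member by more than 0.11, so they could not have changed either direction and are no check of it.

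The promoters of *Id2* and *Id3* are shown because these paralogues had opposite differences. A link between their sequences and these differences was not tested, and sites outside the windows were not examined. The sequences are the 250 bases before the start of the gene, 5′ to 3′ on the strand of the gene, from RefSeq on build GRCm38.p6, at chr12:25096093-25096342 on the minus strand for *Id2* and chr4:136143572-136143821 on the plus strand for *Id3*. Capitals mark GGCGCC and GGAGCC on either strand (GGCTCC is the reverse of GGAGCC), letters that SMAD1 and SMAD5 with SMAD4 are known to bind.
Id2: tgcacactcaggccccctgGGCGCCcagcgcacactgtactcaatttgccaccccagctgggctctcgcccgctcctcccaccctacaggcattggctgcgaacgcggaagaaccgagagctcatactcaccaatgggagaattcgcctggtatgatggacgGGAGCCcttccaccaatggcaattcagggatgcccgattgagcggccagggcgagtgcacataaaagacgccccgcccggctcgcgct
Id3: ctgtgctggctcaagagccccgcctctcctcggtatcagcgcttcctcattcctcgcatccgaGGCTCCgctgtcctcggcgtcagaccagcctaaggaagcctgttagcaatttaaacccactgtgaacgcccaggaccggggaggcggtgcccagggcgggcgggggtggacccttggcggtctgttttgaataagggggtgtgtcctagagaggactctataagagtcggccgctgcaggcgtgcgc
Both windows were 62.8% G and C and held 18 CpG dinucleotides, beside medians of 52.4% and 6 over all 32851 promoter windows. *Id2* held GGCGCC once, from base 231 to base 226 before the start, and GGAGCC once, from base 88 to base 83. *Id3* held GGAGCC once, on the reverse strand from base 187 to base 182, and no GGCGCC. Of all windows of the same length, 9.59% held GGCGCC and 26.0% held GGAGCC, and no match in these windows overlapped another. The paired SMAD box GTCTAGAC (0.167% of all windows), the MAX E-box CACGTG (6.02%) and the EGR1 motif GCGTGGGCG (0.536%) were in neither window on either strand. Of the 10 members, 7 had a promoter entry, and *Id1*, *Bmp2* and *Bmp7* had none. Among the others, CACGTG was in the window of *Bmp4*, GGCGCC in that of *Bmpr1a* and in 1 of the 3 windows of *Smad5*, and GGAGCC in *Bmp4*, *Bmper* and 1 window of *Smad5*.

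The ligand genes differed from each other as well. *Bmp2* was higher in G9a-KO, *Bmp4* was within 1.3-fold and *Bmp7* depended on the probe set. The single *Bmp2* probe set had a level of -3.52 in WT and -1.56 in G9a-KO. It was well under the array median in WT and above it in G9a-KO, a difference of 1.97 (3.91-fold). As the WT value is that of a dim probe set, the fold depends on the background and is not exact. Among the 910 genes of like mean level, 1.21% of the others differed by at least as much.

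*Bmp4*, the ligand linked to ESC self-renewal, was bright on both arrays, with a level of 2.26 in WT and 2.04 in G9a-KO. WT was the higher array by 1.16-fold, and 65.9% of the other genes of like level differed by at least as much. *Bmp7* was measured by 3 probe sets that gave different sizes. The brightest had nearly equal levels of -1.27 in WT and -1.25 in G9a-KO (difference 0.019). The next had -2.36 in WT, below the median, and -1.19 in G9a-KO, a 2.25-fold higher level in G9a-KO. The dimmest, below the median on both arrays (-3.28 and -2.86), was 1.34-fold higher. Which transcripts of *Bmp7* each probe set reads is not stated in the sources. The sign of the brightest probe set was not settled, since its difference was between -0.083 and 0.019 under the scalings tried.

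Of the receptor and SMAD genes, *Smad5* was lower, *Smad1* was nearly equal on both arrays and *Bmpr1a* lay at the threshold. *Smad5* encodes a transducer that acts beside SMAD1 downstream of the same receptors. The level of its brightest probe set was 0.15 in WT and -0.86 in G9a-KO. The other probe sets stood at -1.25 in WT and -1.74 in G9a-KO, and at -1.11 in WT and -1.94 in G9a-KO. All 3 were lower in G9a-KO, by 2.02-fold, 1.40-fold and 1.77-fold in that order, and all lay above the median on both arrays. At the level of the brightest probe set, 14.0% of the other genes differed by at least as much.

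*Smad1* was measured by 3 probe sets above the median. The brightest had a level of 1.67 in WT and 1.68 in G9a-KO, the second 1.36 and 1.49, and the third -0.32 and -0.34. Their differences were 0.0055, 0.13 and -0.016. The first and last were smaller than the SD of the spiked-in controls (0.11), and the second slightly exceeded it. The differences of *Smad1* and *Smad5* by their brightest probe sets thus stood 1.02 log2 units apart.

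*Bmpr1a*, a type I receptor for BMP2 and BMP4, had 6 probe sets, and all 6 were higher in G9a-KO. The brightest had a level of 1.78 in WT and 2.16 in G9a-KO, a difference of 0.38 (1.31-fold) that narrowly passed the 1.3-fold threshold (log2 0.379). The next 4 stood at 0.040, -0.24, -0.46 and -2.09 in WT and at 0.24, -0.084, -0.33 and -1.99 in G9a-KO, with differences of 0.20, 0.16, 0.13 and 0.094. The dimmest, below the array median in WT (-3.94) and G9a-KO (-3.56), differed by 0.38 and was just short of the threshold. The call was lost with no shift of the deposited values (0.33), with median centring (0.28) and with quantile normalization (0.36). Of the other genes of like level, 45.6% differed by at least as much.

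*Bmper*, a secreted protein with chordin-like repeats that binds BMPs and is known to restrain or enhance their signal, had the largest difference of the 10 members. Its single probe set had a level of -3.39 in WT and -0.23 in G9a-KO. It was under the array median in WT and far above it in G9a-KO, a difference of 3.16 (8.94-fold), which again is not exact because WT was dim. Of all genes, 0.341% had a higher difference, and 0.770% of the others of like level differed by as much in either direction.

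**Figure D2:**
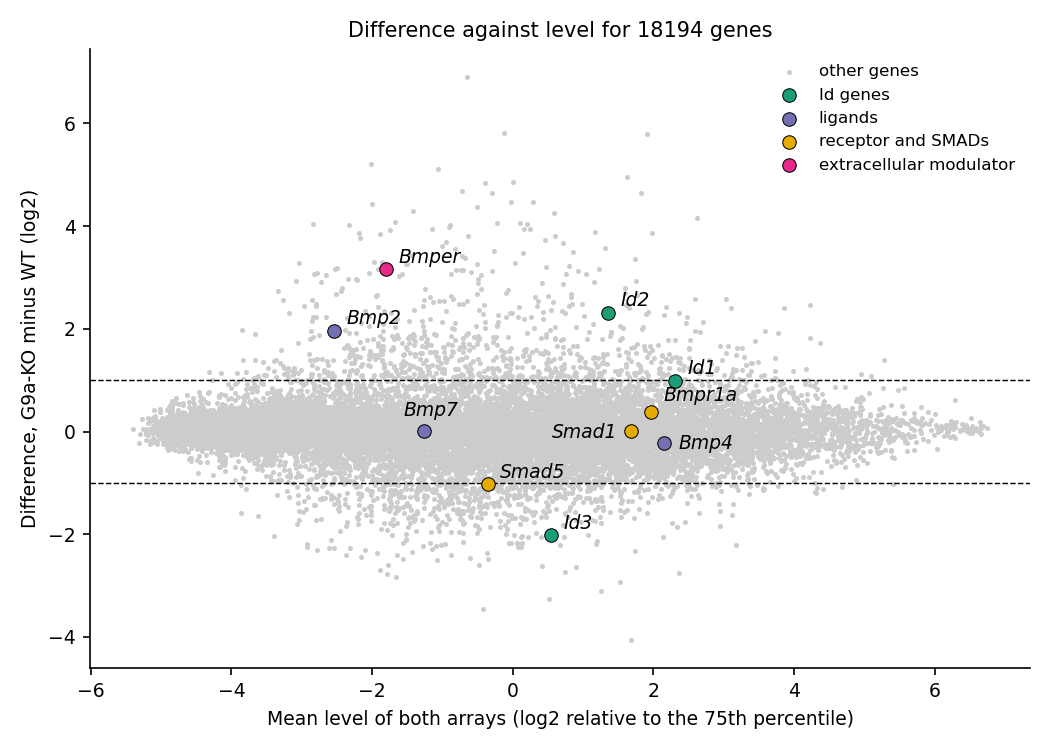
G9a-KO minus WT difference (log2, vertical axis) plotted over mean level (log2 after subtraction of the 75th percentile, horizontal axis) for 18194 genes, 1 point per gene by its probe set with the highest mean, with dashed lines at 2-fold. *Id2* (2.32), *Bmp2* (1.97) and *Bmper* (3.16) lie above the upper line, *Id1* (0.99) on it, and *Id3* (-2.02) and *Smad5* (-1.02) below the lower line.

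Set against the ligands and transducers, the Id genes had the higher median by their brightest probe sets, but this order depended on the probe sets used. The differences of the 3 Id genes had a median of 0.99 (from -2.02 to 2.32), with 2 higher, 1 lower and 0 within 1.3-fold. Those of the 3 ligand genes had a median of 0.019 (from -0.22 to 1.97), with 1 higher and 2 within 1.3-fold. Those of the receptor and SMAD genes had a median of 0.0055 (from -1.02 to 0.38), with 1 higher, 1 lower and 1 within. By these values the Id median minus that of the ligands was 0.97, and minus that of the receptor and SMADs 0.99. Against the ligands it was 0.46 with the mean over probe sets and turned to -0.17 with the probe set of largest absolute difference, which for *Bmp7* is the one at 1.17. Without probe sets ending in _s_at, _x_at or _a_at, which leaves *Id1* without a value, it was -0.63 against the ligands and -0.62 against the receptor and SMADs. The members of a role are not replicates, and the Id median is the value of *Id1* alone, so this difference says nothing of *Id3*. Over probe sets rather than genes, the medians were 0.99 for 5 Id probe sets, 0.42 for 5 ligand probe sets and 0.11 for 12 receptor and SMAD probe sets.

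**Figure D3:**
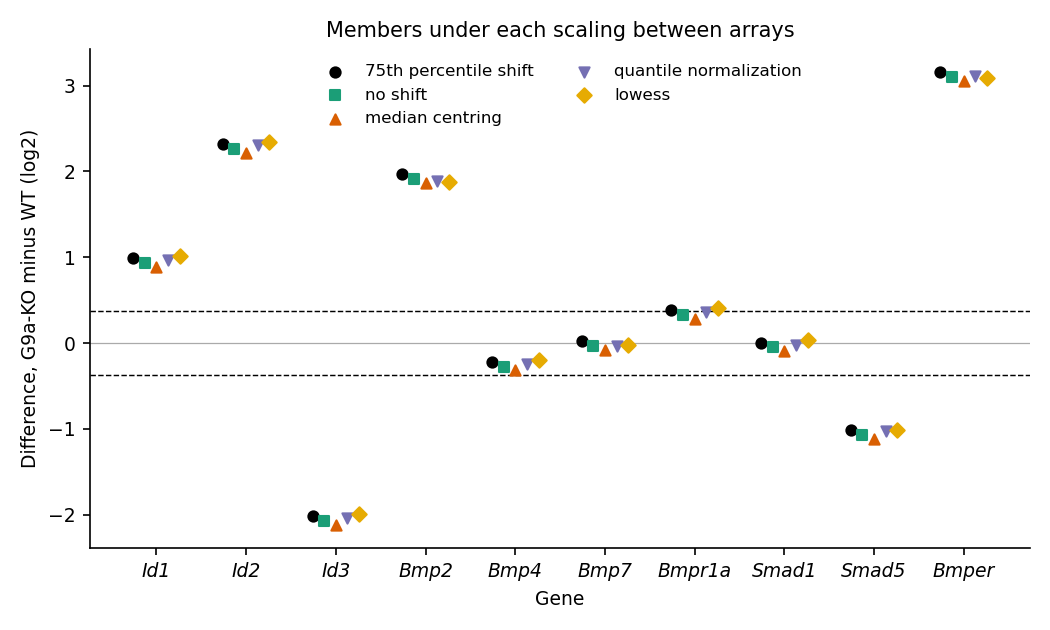
G9a-KO minus WT difference (log2, vertical axis) of the 10 members (horizontal axis) under 5 scalings between the arrays, 1 symbol per scaling, with dashed lines at 1.3-fold. *Bmpr1a* runs from 0.28 to 0.41 across the upper line, whereas *Id2* stays between 2.22 and 2.34 and *Id3* far below the lower line (-2.02 as reported).

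Markers of primitive endoderm differed on the same arrays. The marker lists were chosen with earlier results of these data known, so their counts are descriptions only. All 12 listed markers of primitive endoderm were over 2-fold higher in G9a-KO, beside 4.61% of all genes, with a median difference of 3.58. Their summed linear level was 4.33 in WT and 69.9 in G9a-KO (in units of the 75th percentile). Without *Lamb1*, the brightest, the other 11 summed to 2.88 in WT and 43.9 in G9a-KO. The 8 ESC markers stayed bright, with a summed level of 228 in WT and 231 in G9a-KO, but the equal sums rested on *Dppa5a*, which was 1.53-fold higher. Without it the other 7 summed to 165 in WT and 134 in G9a-KO, and *Zfp42* (1.73-fold), *Utf1* (1.53-fold) and *Pou5f1* (1.37-fold) were lower. Of 9 fibroblast markers, 2 were higher and 0 lower, beside 17.4% and 17.2% of all genes past 1.3-fold. *Col1a2* was 1.78-fold higher, and *Lum* was higher while below the median on both arrays. The 9 markers had a summed level of 16.0 in WT and 15.8 in G9a-KO, of which *Vim* made up 14.8 and 14.3. The other 8 summed to 1.26 in WT and 1.51 in G9a-KO, and 6 of them, *Col1a1*, *Col3a1* and *Dcn* included, lay below the median on both arrays. The part of these cell types in the differences of the members was not tested, and in RNA from whole cultures more cells of a type and more RNA per cell cannot be told apart.

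Of the 56 other measured genes of the pathway (of 61 listed), 11 were over 1.3-fold higher, 7 lower and 38 within 1.3-fold, or 19.6% and 12.5%, beside 17.4% and 17.2% of all genes. The same shares of all genes stand beside the counts per list below. The median difference of the 56 genes was 0.0033, and 19 of them were dim, under the array median in WT and in G9a-KO. Without a shift, and with median centring, 7 were higher instead of 11, since *Acvr2a*, *Nbl1*, *Twsg1* and *Msx2* lost their calls. With these settings, 9 and 10 were lower. Of all genes, 14.7% were higher and 19.9% lower without a shift, and 13.0% and 22.3% with median centring. Identical deposited values on both arrays, which the shift sets 0.056 apart, were held by 4 of the 56 genes and by 0 of the 23 member probe sets. Of all 45101 probe sets, 2347 held such values.

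Among the other ligands, 1 of 8 was over 1.3-fold higher and 0 were lower. This was *Bmp6*, whose protein is closely related to BMP7, at a level of -3.06 in WT and -1.46 in G9a-KO (3.02-fold, with WT below the median). Of 9 other receptor genes, 3 were higher and 0 lower by the brightest probe set. *Eng* and *Rgmb* were within 1.3-fold by that probe set, but others above the median were lower. These differed by -0.82 for *Eng* and by -0.59 and -0.97 for *Rgmb*. The type I receptor gene *Acvr1* stood at -0.60 in WT and 0.053 in G9a-KO (1.58-fold). The type II receptor gene *Bmpr2* stood at 0.36 and 0.88 (1.43-fold), with a second probe set above the median at 0.11. *Acvr2a* was 1.31-fold higher, with a second probe set at 0.056.

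Of 15 measured genes listed as extracellular antagonists or modulators of BMP, 3 were higher and 1 lower. *Crim1*, which encodes a membrane protein that binds BMPs, stood at -2.75 in WT and -1.08 in G9a-KO (3.18-fold, with WT below the median). *Nbl1*, which lay below the median in WT, and *Twsg1* were each 1.31-fold higher, and another probe set of *Twsg1* differed by -0.099. *Gdf3*, a TGF-beta family member of ESCs that can inhibit BMP, was bright on both arrays (2.79 and 1.89) and 1.86-fold lower, with a second probe set at -1.37. The 3 chordin proteases were within 1.3-fold.

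Of 10 other SMADs and SMAD regulators, 1 was higher and 3 were lower by the brightest probe set. *Smurf1* and *Ski* were within 1.3-fold by that probe set, but another above the median differed by 0.83 and -0.60. *Smad9*, the remaining BMP-activated SMAD, was 1.44-fold higher, below the array median in WT (-2.38) and above it in G9a-KO (-1.86). *Zfp423*, a zinc finger cofactor of BMP SMADs, was lower, with -0.35 in WT and -1.24 in G9a-KO (1.86-fold). The inhibitory *Smad7* (difference -0.58) and the SMAD corepressor *Skil* (-0.50) were lower, and their second probe sets above the median differed by -0.38 and -0.82.

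The fourth Id gene was grouped with the E proteins, the partners that ID proteins bind. *Id4* stood at -1.39 in WT and 0.42 in G9a-KO. G9a-KO was the higher array by 3.51-fold, and its other probe sets above the median differed by 1.03 and 0.70. Of the E protein genes, *Tcf3* was 1.58-fold lower (1.76 in WT and 1.10 in G9a-KO), with other probe sets at -0.43 and -0.50. *Tcf12* was 1.73-fold lower by its brightest probe set, but its other probe sets above the median differed by 0.27 and -0.23. *Tcf4* was within 1.3-fold by its brightest probe set (-0.076), while its 4 other probe sets above the median went both ways (0.94, 0.89, -0.52 and -0.59), so no direction is given. Of 7 other measured BMP targets, 2 were higher and 1 lower. *Dusp9*, a phosphatase of ERK and a BMP target of ESCs, stood at 1.03 in WT and 2.71 in G9a-KO (3.19-fold), and its other probe sets differed by 1.72 and 1.44. The homeobox gene *Msx2* was 1.31-fold higher and the transcriptional repressor gene *Hey1* was 1.34-fold lower.

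**Figure D4:**
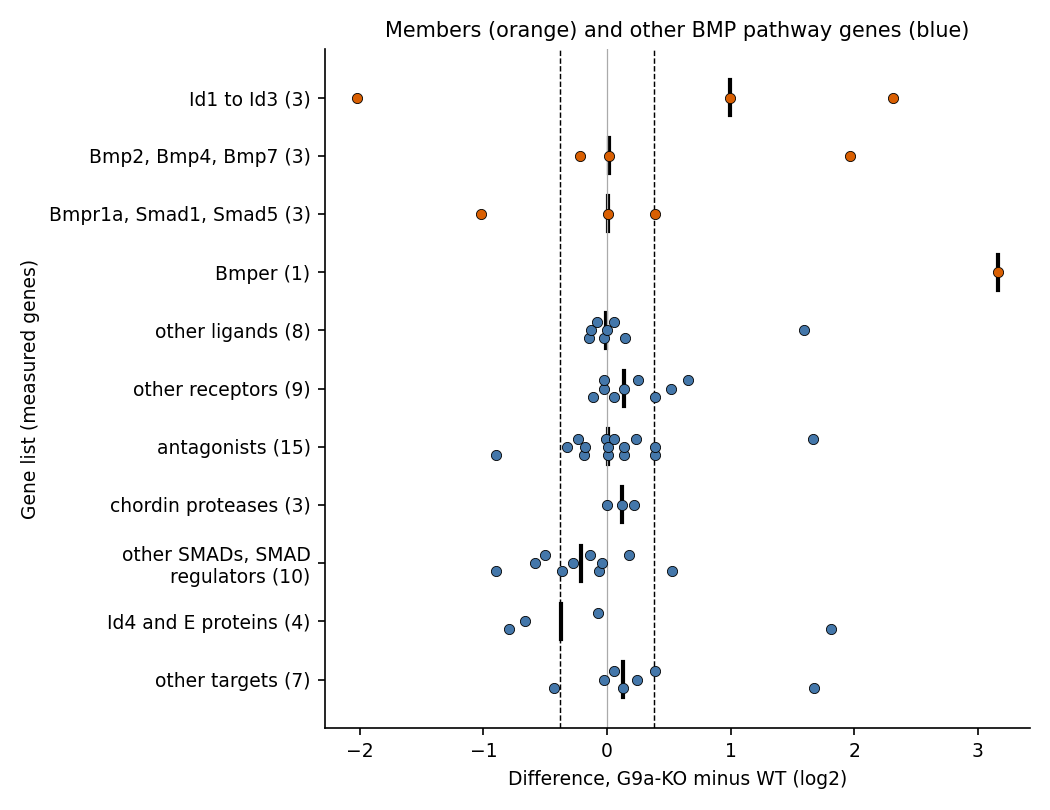
G9a-KO minus WT difference (log2, horizontal axis) for the 10 members (orange) and 56 other BMP pathway genes (blue) by list (vertical axis), 1 point per gene, with a bar at the median of each list and dashed lines at 1.3-fold. *Id3* at -2.02 lies farthest left and *Bmper* at 3.16 farthest right, and the bar of the other ligands lies near 0 (-0.012).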

How the data were processed

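Total RNA of both ESC lines was hybridised to 1 Affymetrix mouse genome array per line after biotin labelling of cRNA from 200 ng of RNA. The deposited values are log2 intensities that the authors computed by RMA, for which the submitters' processing notes name R 3.2.1 (package not given in the sources used here). The deposited values were close to but not on the same distribution, with a 75th percentile of 7.37 in WT and 7.31 in G9a-KO. As the arrays were normalized, a difference in total RNA per cell cannot be seen.

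Each array was shifted by its 75th percentile over all 45101 probe sets and the WT value was subtracted from the G9a-KO value, after the methods of the study. Thresholds were 1.3-fold and 2-fold. Of the probe sets, 34958 had 1 gene symbol in the platform annotation, 932 had several and 9211 were unnamed here. A gene was represented by its brightest probe set by mean level. All member probe sets were named. Other pathway genes were named where they were past 1.3-fold and above the median on at least 1 array, up to 4 per list by the size of the difference. *Lum*, *Vim*, *Lamb1* and the genes given as within the threshold or below the median were named after their values were seen. Members and lists were chosen with earlier results of these data known. With 1 array per group no test was made, and precision is limited by the number of arrays. All 10 members matched the RefSeq gene table by symbol. No coordinates of probe sets are printed, because no build is named for the array. Alternatives were other scalings (no shift, median centring, quantile normalization, lowess with a span of 0.3), filters on probe sets and the mean, the largest absolute difference or any 1 probe set as the value of a gene. The steps were tested on simulated data, with Python 3.11.15, numpy 2.4.6, pandas 2.3.3 and statsmodels 0.14.6.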

Additional observations from a re-analysis of the deposited data

How the results depend on the processing

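Each value was recomputed under the alternatives, and a log2 value was taken as moved where it shifted by more than 0.11, the SD of the spiked-in controls. Of 178 recomputed values, 154 stayed within this limit or within 1.5 times a count, 20 moved and 4 reversed. A reversal was counted only where the reported log2 value was past 1.3-fold in size. Changes of sign in smaller values are not among the 4, such as that of the ligand median (0.019, and -0.083 with median centring). Many of these values could not change. Where a gene has 1 probe set, the choices among probe sets return the same value or none. Leaving out the shift and median centring cannot alter a difference of medians. The tally is thus not a measure of how stable the results are. The scalings moved no member by more than 0.11, and median centring shifted the median of all genes by -0.10. The Id median reversed to -0.61 without probe sets ending in _s_at, _x_at or _a_at, as this leaves *Id1* with no probe set and *Id2* with its dim one (0.80). The Id median minus that of the ligands and of the receptor and SMADs then reversed to -0.63 and -0.62. Keeping the _a_at ending, a choice made after seeing the data, moved no value. Marker sums without the brightest marker were also added after seeing the data. With the mean over probe sets, *Id2* was 1.79, *Bmp7* 0.54, *Bmpr1a* 0.22 and *Smad5* -0.77, the ligand median was 0.54 and the Id median minus it 0.46. With the largest absolute difference, *Bmp7* and the ligand median were 1.17 and *Smad1* and the receptor and SMAD median 0.13, so that the Id median minus these was -0.17, a reversal, and 0.86. At 2-fold, 3 members were higher. Of the 56 other pathway genes, 7 were higher without a shift and with median centring and 6 with the mean over probe sets. At 2-fold 4 were higher and 0 lower, beside 4.61% and 3.76% of all genes. With at least 1 probe set past the fold 13 were lower, beside 22% of all genes. With the largest absolute difference 12 were lower. The share of all genes was not computed with the mean or the largest absolute difference. No paired analysis was possible because each group held 1 array, and no array could be left out. Differences of dim probe sets are limited by background.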
